A study of Mus musculus with 4 samples.

Results

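The transcripts described here are the 10 genes of the EGF receptor family that the array names Areg, Ereg, Hbegf, Tgfa, Btc, Epgn, Egfr, Erbb2, Erbb3 and Errfi1, out of 31896 gene names on the array. They were taken by gene name among the non-control probes, which gave 12 probes on 39 spots of each array, and the rule itself uses no measured value. Each array compared 15p cells with 0p cells, both derived from primary skin epithelial cells of adult C3H/HeN mice and both sorted for CD49f (integrin alpha 6) and CD34, surface proteins used together to isolate hair follicle bulge stem cells. For 15p, sorting followed the 15th culture of a series with Wnt-3a, each of 10 days on collagen I, and 0p stands for the sorted cells without that series. Wnt-3a is listed as the treatment of both RNAs, so whether the 0p cells also met it before lysis is not settled here. There were 2 biological replicates, each hybridised on 2 two-colour arrays with the dyes exchanged, and no label ties them to separate animals. P-values therefore rest on the spread between these 2 RNA pairs, taken mostly from all genes together, and that spread may be technical. An array is called a Cy5 array or a Cy3 array here after the dye that held its 15p RNA.

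EGF family ligands are made as membrane proteins, released by metalloproteases, and bind receptor tyrosine kinases at the cell surface. Areg, Tgfa and Epgn bind the EGF receptor itself, while Hbegf, Btc and Ereg also bind Erbb4, a further member of the family. Bound receptors pair with each other, and Erbb2, which has no ligand of its own, is a preferred partner. In the epidermis this signalling drives keratinocyte proliferation and migration, and cultured keratinocytes feed their own receptor through ligands that they secrete.

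Of the 12 probes, 4 are shown, each with an open reading frame through it. The other 8 are given by position only, and whether a frame runs through them is not reported here. An open frame over so short a stretch does not by itself place a probe in coding sequence. All sequences are from the deposited files, 60 bases each, 5′ to 3′, with positions in mouse build mm9. The Areg probe (chr5:91570090-91570149, plus strand) has a reading frame without a stop codon. Erbb3 is probed at chr10:128006424-128006483 on the minus strand, and the capitals mark a stop codon that closes a frame otherwise open along the whole probe. Egfr has a pair of probes that the files list under transcript variant 2, which encodes a shorter receptor without the kinase part, and the listing does not say whether they also detect variant 1. One of them (chr11:16787172-16787231, plus strand) also closes an open frame with a stop codon in capitals, and the other (chr11:16783556-16783615, plus strand) has a frame without one.
Areg, A_52_P482897: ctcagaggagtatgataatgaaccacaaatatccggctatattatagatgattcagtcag
Erbb3, A_55_P2119897: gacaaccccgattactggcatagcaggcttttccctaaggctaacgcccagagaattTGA
Egfr, A_55_P1956862: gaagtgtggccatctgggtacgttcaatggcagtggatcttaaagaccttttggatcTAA
Egfr, A_55_P1956863: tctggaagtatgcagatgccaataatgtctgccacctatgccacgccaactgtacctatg
The third Egfr probe, A_52_P106259, is listed for variant 1, the full-length receptor, at chr11:16813815-16813874. It was the brightest of the 3 and stood for Egfr in the test.

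The extraction software marked all 12 probes as well above background on all 4 arrays, in 15p cells and in 0p cells alike. The margin over the negative controls differed: the raw signal of the Errfi1 probe was between 54.3 and 171 times the 95th percentile of its dye's negative control spots, whereas that of Erbb3 was between 1.35 and 2.45 times and that of Btc between 1.49 and 2.11 times. Probes differ in how well they bind, so these margins say how reliably each probe was read and do not rank the genes. Between 55.0% and 68.1% of all probes were well above background in either RNA on the 4 arrays. The basal keratinocyte markers Krt5, Krt14, Itga6, Itgb4 and Trp63 were above background on every array in both RNAs (5 of 5). Cd34, the gene of a sorted protein, was above it on 0 arrays in 15p cells and on 1 in 0p cells, while the other bulge markers, Itga6 and Krt15, were above it on all 4 arrays in both (2 of 3 throughout). Of the suprabasal genes Krt10, Ivl and Lor were above background throughout and Krt1 on 0 arrays in either RNA (3 of 4). Of the markers of other cells, 0 of 4 fibroblast, 1 of 2 endothelial (Pecam1), 1 of 2 immune (Cd3e) and 2 of 3 melanocyte genes (Mlana and Tyr) were above background throughout. Among the rest, fibroblast Col1a1 and immune Ptprc were above it on 3 arrays in both RNAs. Fibroblast Col1a2 was above it on 3 arrays in 15p cells and on 1 in 0p cells. Melanocyte Dct was above it on 1 array in each RNA, and Pdgfra, Dcn and Cdh5 on 0.

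No member was called higher or lower in 15p cells (0 and 0 of 10, limma with Benjamini-Hochberg adjustment over all genes at 0.05, lowest adjusted p among members 0.749). The background was the same, with 0 of 17374 genes (0%) called in either direction. Another fit took the 4 arrays with the replicate as a block and a dye term. Its error left out the spread between replicates and was 1 common spread for all genes. That fit called 60 genes (0.345%) and 0 of 10 members. In the first fit, an unadjusted limma p under 0.05 was found for 0 of 10 members, against 1095 genes or 6.3% of all tested. Mean log2 ratios of 15p over 0p ran from -0.14 for Areg to 0.094 for Btc. The median over the 10 members was -0.031, beside 0.0025 over all genes, and 6 members had a ratio below 0, or 60%, where 48.6% of all genes did. For all 10 the 95% interval of the ratio lay within a 1.5-fold difference, as it did for 99.7% of tested genes. These intervals borrow their width from all genes, since the replicates alone leave 1 residual degree of freedom. They also follow a constant offset added to the intensities, which draws the ratios of dim probes towards 0. The bound therefore says less for Btc and Erbb3, the members nearest to the negative controls. With the software's own processed signals Btc had 0.19 in place of 0.094, and Erbb3 had -0.016 in place of 0.058. Other offsets were not tested.

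**Figure D1:**
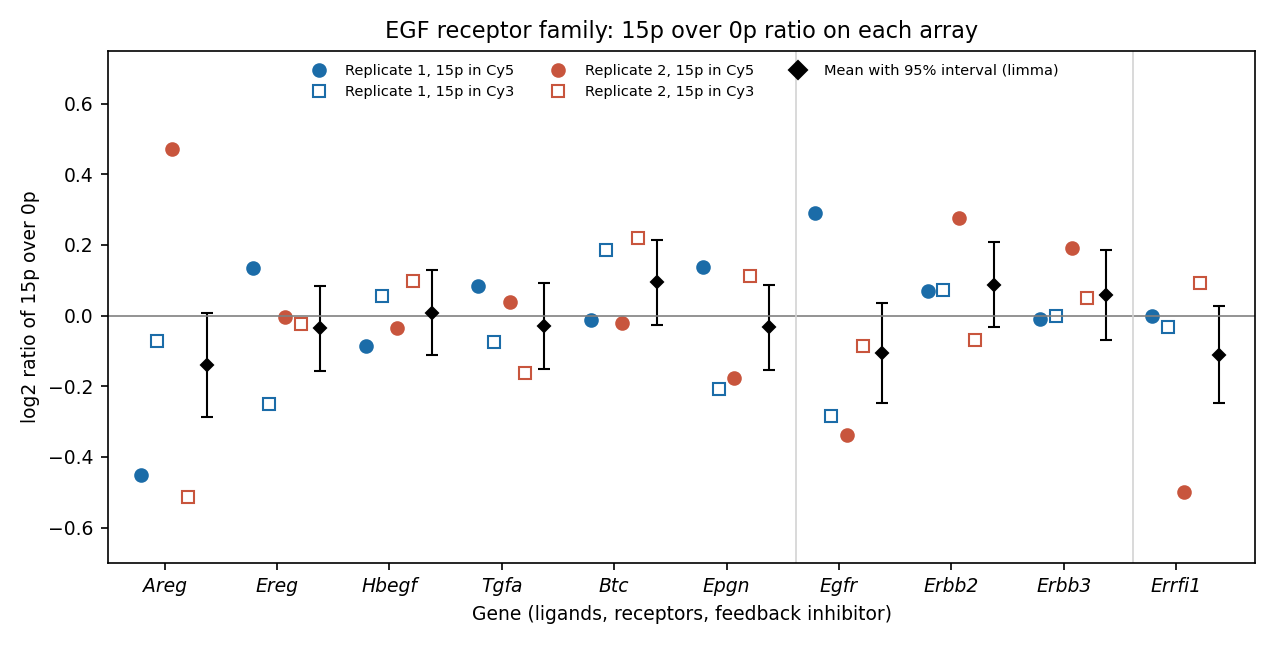
Log2 ratio of 15p over 0p (vertical axis) for the 10 genes (horizontal axis), with circles for Cy5 arrays, open squares for Cy3 arrays, and blue and red for replicates 1 and 2. Black diamonds are the mean of the 2 replicates with its 95% interval from limma; Areg spans from -0.51 to 0.47 over its arrays, and every interval includes 0.

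In the values that follow, the 4 arrays are given in one order: the Cy5 and the Cy3 array of replicate 1, then the Cy5 and the Cy3 array of replicate 2. Levels are normalised log2 intensities, comparable between RNAs for one probe only. In bulk RNA, fewer cells that express a gene and less of its RNA per cell cannot be told apart.

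Among the ligands, amphiregulin had the lowest ratio and the widest spread. Areg encodes a ligand that keratinocytes secrete to drive their own growth. Its level in 15p cells was 10.51, 10.51, 11.87 and 11.13, against 10.96, 10.58, 11.39 and 11.64 in 0p cells. The 15p cells were thus lower on 3 arrays and higher on the Cy5 array of replicate 2, and the ranges of both RNAs overlapped. The log2 ratio was -0.45, -0.071, 0.47 and -0.51, with a mean of -0.14 ± 0.17 (SD, n = 2) and a 95% interval from -0.29 to 0.0066 (limma, adjusted p = 0.749). On the Cy5 array of replicate 1 only 0.242% of tested genes had a lower ratio than Areg, and on the Cy3 array of replicate 2 only 0.328%, while on the Cy5 array of replicate 2 95.6% did. The Areg result depended on single arrays: a 3-array fit without the Cy5 array of replicate 2 gave -0.37 and called it (adjusted p = 4.11e-06), and a fit without the Cy5 array of replicate 1 gave 0.090 (adjusted p = 0.346). In the first of these fits limma took 1 common spread for all genes and called 88 of them (0.507%).

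The level of Areg differed more between the replicates than between the RNAs. In replicate 2 its values in both RNAs lay between 11.13 and 11.87, and in replicate 1 between 10.51 and 10.96, with no overlap. The mean shift of replicate 2 over replicate 1 was 0.87 log2 units, 0.99 in 15p cells and 0.75 in 0p cells. That was larger than the absolute shift of 99.6% of tested genes, whose median was 0.097. Non-overlapping replicate levels were found for 2 of 10 members, Areg and Erbb3, and for 20.9% of all genes. Erbb3 shifted by 0.17. Each replicate had a slide of its own, so the slide and the replicate cannot be told apart, and no test was made of this shift.

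Ereg, Epgn and Btc encode epiregulin, epigen and betacellulin, and lie near Areg on chromosome 5. In mm9 the probes start at 91464119 (Epgn), 91522553 (Ereg), 91570090 (Areg) and, on the minus strand, 91786948 (Btc), so that the cluster spans 322.8 kb from first to last start. The shifts of Areg's neighbours between replicates were -0.13 for Ereg, 0.0090 for Epgn and -0.015 for Btc. In absolute size that of Ereg was above the median of all genes and the others were below it.

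Ereg had levels of 10.09, 9.88, 9.86 and 9.90 in 15p cells, against 9.96, 10.13, 9.87 and 9.92 in 0p cells. The RNAs overlapped, with the highest value in 0p cells. Its ratio was -0.036 ± 0.031 (SD, n = 2), and the single arrays of replicate 1 gave 0.13 (Cy5) and -0.25 (Cy3). Epgn had levels of 9.04, 9.03, 8.94 and 9.15 in 15p cells, against 8.90, 9.23, 9.12 and 9.04 in 0p cells, with overlap. Its arrays disagreed within both replicates, with 0.14 and -0.21 in replicate 1 and -0.18 and 0.11 in replicate 2, yet the replicate means were -0.034 and -0.032. The mean of Epgn was therefore -0.033 ± 0.0013, an SD that does not count how far a pair's own arrays lay apart.

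Btc had the highest ratio of the family, 0.094 ± 0.0088 (SD, n = 2), with a 95% interval from -0.026 to 0.21 (limma, adjusted p = 0.759). Levels were 6.86, 7.11, 7.02 and 6.94 in 15p cells, against 6.88, 6.93, 7.04 and 6.72 in 0p cells, overlapping again. The ratio was slightly negative on the Cy5 arrays (-0.011 and -0.020) and positive on the Cy3 arrays (0.19 and 0.22), so the whole mean came from one dye orientation. With the software's own processed signals the mean was 0.19 (limma, adjusted p = 0.834), and Btc was then the 1 member of 10 at an unadjusted p under 0.05, where 5.28% of genes were.

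Hbegf (chr18:36664738-36664797, minus strand) encodes heparin-binding EGF-like growth factor, known for its part in keratinocyte migration during wound closure. Its level was 10.989, 11.041, 10.944 and 10.998 in 15p cells, against 11.075, 10.985, 10.978 and 10.901 in 0p cells, and both ranges overlapped. The ratio was 0.0083 ± 0.032 (SD, n = 2), and its 95% interval in fold ran from 0.925 to 1.09 (limma, adjusted p = 0.977). Tgfa (chr6:86224838-86224897, plus strand), which encodes transforming growth factor alpha, was printed on 10 spots an array, of which 7 to 10 were used. Its level was 8.004, 7.968, 8.005 and 7.963 in 15p cells, against 7.92, 8.042, 7.967 and 8.126 in 0p cells. The 15p values lay inside the range of the 0p values. The ratio of Tgfa was -0.029 ± 0.048.

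**Figure D2:**
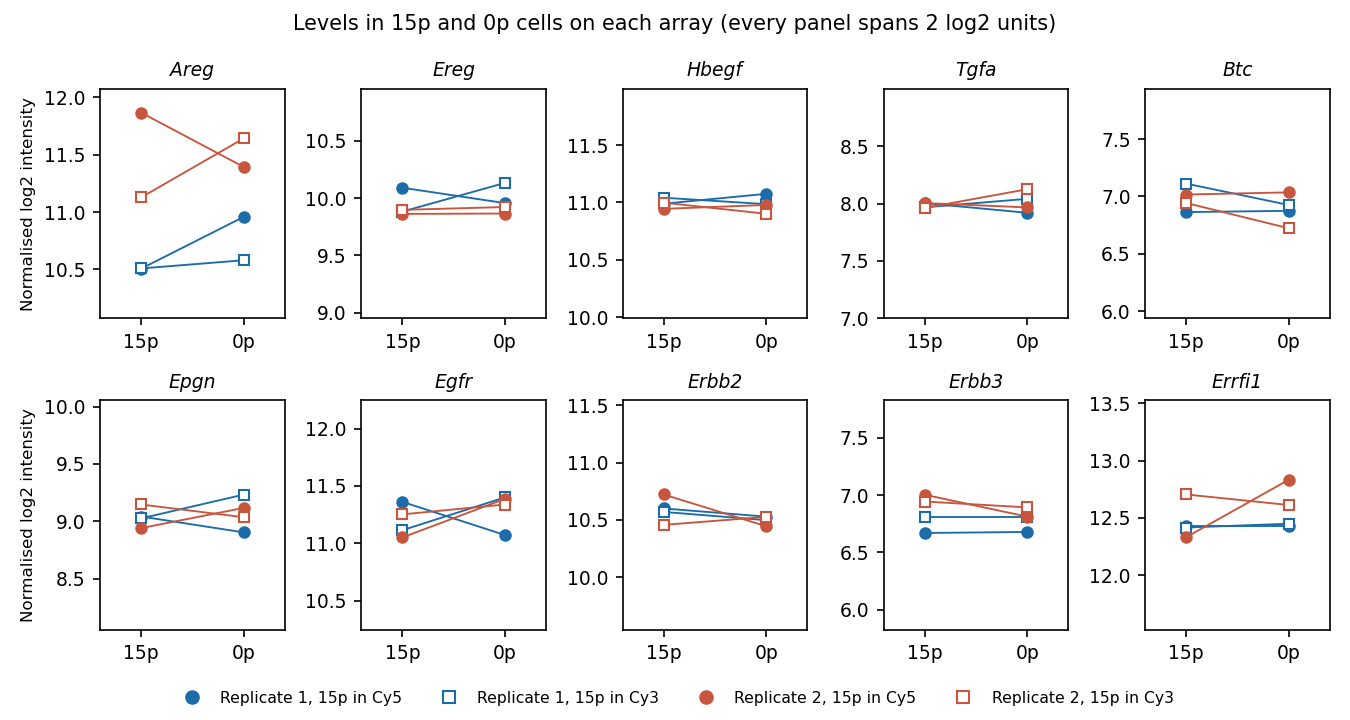
Normalised log2 intensity (vertical axis, each panel spanning 2 log2 units) of the 10 genes in 15p and 0p cells on each of the 4 arrays, with lines joining the RNAs of an array. Blue and red are replicates 1 and 2, and circles and open squares are Cy5 and Cy3 arrays; the RNAs overlap in every panel, and the replicates of Areg stand apart.

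Levels of 15p and 0p cells overlapped for 10 of 10 members. Non-overlapping levels were rare among all genes too, with 0.288% higher and 0.19% lower in 15p cells. Nor did any member have the same sign on all 4 arrays (0 higher and 0 lower of 10), where 3.67% of genes were higher and 3.11% lower on every array. The replicate means had opposite signs for 4 members, Hbegf, Tgfa, Egfr and Erbb3 (40%, against 43% of all genes).

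Of the receptors, Egfr had the lowest ratio. The variant 1 probe had levels of 11.36, 11.11, 11.05 and 11.25 in 15p cells, against 11.07, 11.40, 11.39 and 11.34 in 0p cells. The 15p cells were higher on the first of these arrays and lower on the other three. Ratios were 0.29, -0.29, -0.34 and -0.086, so replicate 1 averaged 0.0019 and replicate 2 -0.21. The mean was -0.10 ± 0.15 (SD, n = 2), with a 95% interval from -0.25 to 0.037 (limma, adjusted p = 0.774). Without the Cy5 array of replicate 1, a 3-array fit called Egfr lower (-0.26, adjusted p = 0.000834), but it also called 3120 genes in all (18% of those tested) with 1 common spread, and without the Cy5 array of replicate 2 the ratio was 0.052.

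The difference between arrays exceeded the spread of spots within an array. The Egfr variant 1 probe was printed on 10 spots, with an SD of spot ratios between 0.015 and 0.067. On the Cy5 array of replicate 1 all 10 spots were positive, from 0.19 to 0.39, and on the other 3 arrays 0 of 10 were. Erbb2 and Tgfa, also printed 10 times, had spot SDs between 0.025 and 0.068. The 10 spots share 1 labelled RNA pair, so they measure the reading of an array and not the replicates.

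The Egfr probes gave different ratios. The probe that ends in a stop codon had levels of 8.53, 8.40, 8.88 and 8.325 in 15p cells, against 8.36, 8.40, 8.33 and 8.40 in 0p cells. Its 0p values were close together, and the 15p values lay above, within and just below them. Its ratios were 0.17, 0.00020, 0.54 and -0.074, a mean of 0.16 ± 0.11 (SD, n = 2) with an interval from 0.023 to 0.30 (limma over 21658 probes, adjusted p = 0.787). It was the 1 member probe of 12 at an unadjusted p under 0.05, where 5.67% of all probes were. The other probe listed under variant 2, A_55_P1956863, had -0.0030, 0.060, 0.081 and -0.15, with a mean of -0.0024 ± 0.044. On the Cy5 array of replicate 2 the probe that ends in a stop codon exceeded the variant 1 probe by 0.88, and on the other arrays by -0.12, 0.29 and 0.012. The mean ratios of the 3 probes spanned 0.26. Among 3590 genes with several tested probes the median span was 0.057, and 2.14% spanned as much as Egfr. These genes were pooled whatever their number of probes, and a span tends to widen with that number. Averaging the 3 probes gave Egfr a ratio of 0.018 in place of -0.10.

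**Figure D3:**
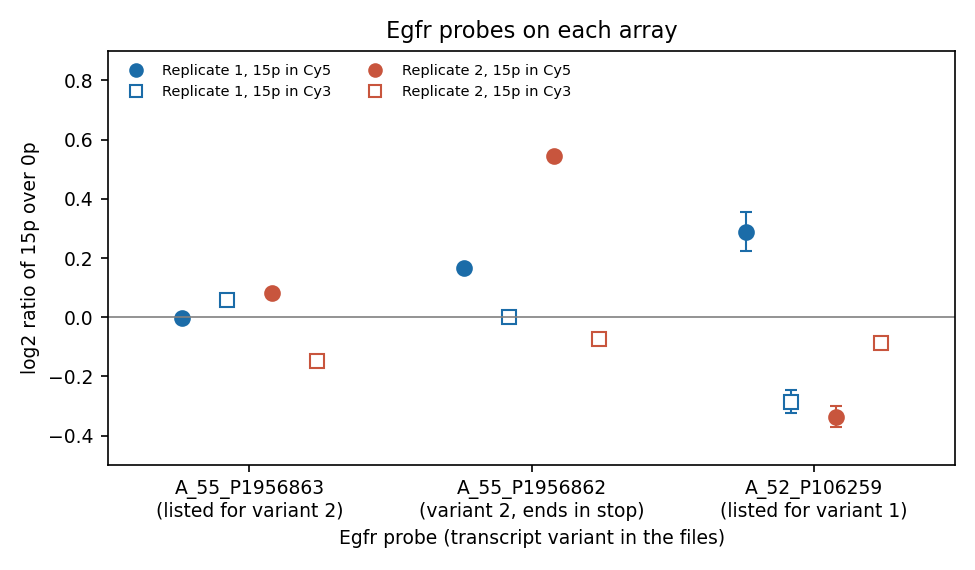
Log2 ratio of 15p over 0p (vertical axis) for the 3 Egfr probes on each array, with circles for Cy5 arrays, open squares for Cy3 arrays, and blue and red for replicates 1 and 2. Error bars on the variant 1 probe are the SD over 10 spots of an array; on the Cy5 array of replicate 2 the probe that ends in a stop codon stands at 0.54 and the variant 1 probe at -0.34.

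Erbb2 (chr11:98298103-98298162, plus strand), the partner receptor, had levels of 10.60, 10.57, 10.72 and 10.46 in 15p cells, against 10.53, 10.50, 10.44 and 10.53 in 0p cells. The 15p cells were higher on 3 arrays, by 0.070, 0.071 and 0.28, and had a ratio of -0.070 on the fourth. The mean ratio was 0.087 ± 0.023 (SD, n = 2), with an interval from -0.033 to 0.21 (limma, adjusted p = 0.776). The ratio was 0.14 without the Cy5 array of replicate 1 and 0.035 without the Cy5 array of replicate 2. Erbb3, whose kinase is weak and which signals through its partners, had levels of 6.67, 6.81, 7.003 and 6.94 in 15p cells, against 6.68, 6.81, 6.81 and 6.89 in 0p cells. These overlapped, and the replicate 1 values of the RNAs nearly coincided. The ratios were -0.0090, -0.00080, 0.19 and 0.050. Its mean was 0.058 ± 0.089, and its sign turned with the software's own processed signals (-0.016).

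Errfi1 (chr4:150242886-150242945, plus strand) encodes a cytoplasmic inhibitor that binds active EGF receptor and is itself induced by the pathway. Its level was 12.43, 12.42, 12.33 and 12.70 in 15p cells, against 12.43, 12.45, 12.83 and 12.61 in 0p cells. Both replicate 1 arrays and the last array put the RNAs within 0.093 of each other, and the Cy5 array of replicate 2 put the 15p cells lower by 0.50. The mean ratio was -0.11 ± 0.13 (SD, n = 2; limma, adjusted p = 0.752). Without that array it was 0.015, and without the Cy5 array of replicate 1 it was -0.24. The latter fit took 1 common spread for all genes. It left the Cy5 array of replicate 2, with its ratio of -0.50, as the only array of that orientation.

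The Cy5 array of replicate 2 gave the largest absolute ratio for 4 of 10 members (Egfr, Erbb2, Erbb3 and Errfi1). That share, 40%, is set beside 56.8% of all genes. The SD of ratios over all genes was 0.29 on that array and between 0.13 and 0.14 on the other three. Beyond the 5th and 95th percentiles of their array stood Areg and Egfr on the first array, Btc, Egfr and Ereg on the second, Areg and Errfi1 on the third, and Areg and Btc on the fourth.

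The dye of the 15p RNA moved with the ratios of 3 members. Hbegf, Tgfa and Btc had one sign on both Cy5 arrays and the other on both Cy3 arrays (3 of 10, or 30%, against 32.3% of genes). The difference between the orientations, Cy5 minus Cy3 arrays, was 0.30 for Areg, from 0.011 and -0.29, and -0.28 for Errfi1, from -0.25 and 0.030. It was called for 0 of 10 members (limma with a replicate block, lowest adjusted p = 0.456) and at an unadjusted p under 0.05 for 0 of 10, against 3.8% and 14% of genes. That fit took 1 common spread for all genes, so how closely a gene's own arrays agreed did not enter its p. With median centring in place of loess the dye difference was called for 7 of 10 members and for 58% of genes. Across all genes the ratios of the arrays of a pair ran opposite (r = -0.55 in replicate 1 and -0.40 in replicate 2). So did Cy5 and Cy3 arrays of different replicates (r = -0.44 and -0.18), while arrays of one orientation ran alike (r = 0.27 for Cy5 and 0.41 for Cy3 arrays). Genes are not independent replicates, so these correlations describe the arrays only.

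**Figure D4:**
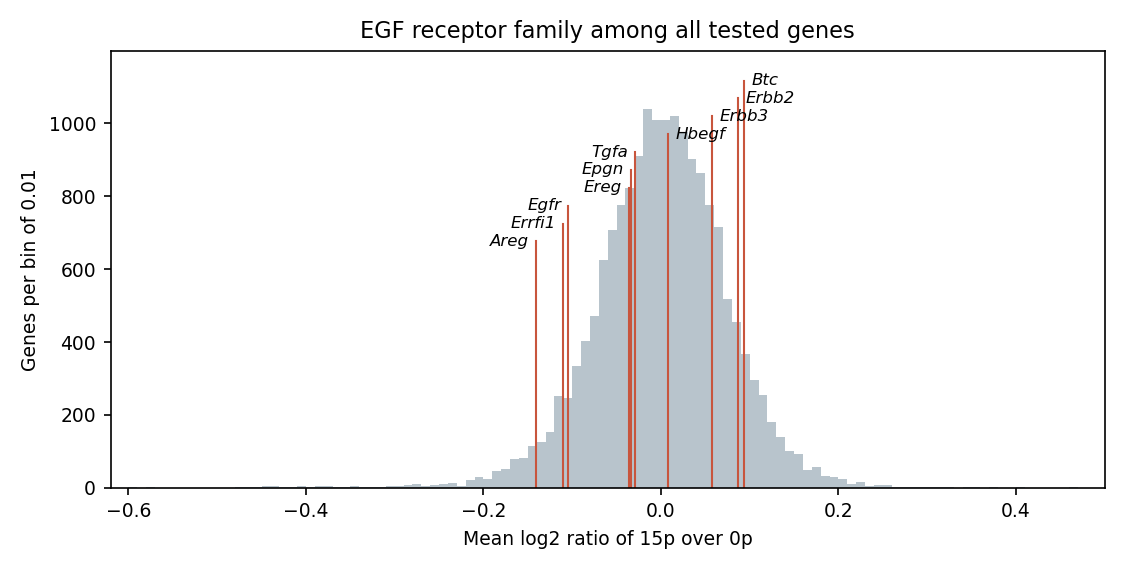
Number of genes (vertical axis) per bin of 0.01 in mean log2 ratio of 15p over 0p (horizontal axis), for 17374 tested genes in grey, with red lines at the 10 family members. The members run from -0.14 (Areg) to 0.094 (Btc), from the 3.26 to the 91.0 percentile of tested genes.

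Other genes of the pathway, 62 in a list of ligands, receptor, proteases, signal carriers, inhibitors and induced targets, gave no call either. Of these 57 were tested, with 0 called higher and 0 lower. Ratios were above 0 for 35 and below for 22, where 51.4% of all genes were above 0, and the median was 0.0086. At an unadjusted limma p under 0.05 there were 2 of 57, Pik3ca and Mapk3, against the 6.3% of all genes given above. The other EGF family ligands ran from -0.012 for Nrg1 to 0.060 for Nrg2, both neuregulins, with Egf itself between them. Nrg3, Nrg4 and Erbb4 were not kept as above background and have no ratio here. All 5 genes of ligand shedding were tested and had mean ratios above 0, beside the 51.4% of all genes. They ran from 0.0074 for Adam10, a metalloprotease, to 0.040 for Rhbdf2, an inactive rhomboid that serves Adam17. Each was above 0 on 2 arrays and below 0 on 2, and each mean was smaller than the median absolute ratio of all genes, 0.046.

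Among 24 tested adaptors and kinases, Mapk3, which encodes the kinase ERK1, had the highest ratio, 0.14 ± 0.095 (SD, n = 2). Pik3ca, a catalytic subunit of phosphoinositide 3-kinase, had the lowest, -0.16 ± 0.15, and was below 0 on all 4 arrays. Among 13 feedback inhibitors, Spred2, an inhibitor of the Ras pathway, had 0.15 ± 0.20 and Cbl, a ubiquitin ligase that targets active receptors, -0.16 ± 0.31. Both values came mainly from replicate 2, at 0.29 and -0.38, against 0.0055 and 0.056 in replicate 1. Of 12 induced targets 10 had ratios above 0, the highest Fosl1, an AP-1 subunit, at 0.095 ± 0.040, and the lowest was Ier3, an immediate early gene, at -0.11 ± 0.26. That compares with 51.4% of all genes above 0, and 0 of the 12 targets had the same sign on all 4 arrays. The largest single ratios of Mapk3 (0.47), Pik3ca (-0.41), Fosl1 (0.35) and Ier3 (-0.68) were on the Cy5 array of replicate 2. That array also held the largest absolute ratio of 56.8% of all genes. The 57 ratios thus lay between -0.16 and 0.15, and the members between -0.14 and 0.094.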

How the data were processed

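RNA of 15p and 0p cells was measured on 4 two-colour Agilent arrays. Mean spot and local background intensity were deposited by the authors as extracted with Agilent Feature Extraction 10.7.3.1, per the file headers, as were the processed intensity and the log10 ratio of Cy5 over Cy3. The series value table holds the same deposited log10 ratios, with a median of 0 in each column and differences of at most 0.00449 from the arrays. The direction of its columns, unturned for the dye swap, was found by this comparison. Flags of the software mark spots well above background or irregular.

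In R 4.3.3 with limma 3.58.1, intensities were corrected with normexp (offset 50) and normalised by loess with controls at weight 0. Irregular spots were left out (154 to 286 of 43020 an array, some of Tgfa and Erbb2 among them), no spot was saturated, and spots of a probe were averaged. The filter asked for a signal well above background on a majority of a probe's spots, on all 4 arrays in one RNA (21658 probes), and the brightest stood for its gene. Symbols came from RefSeq accessions in the GRCm38.p6 gene list for 26055 probes; exon and untranslated region annotation was not used here. Ratios were turned to 15p over 0p by the dyes in the labels and averaged per dye-swapped pair. The 2 replicate values were tested against 0 with lmFit and eBayes, adjusted over 17374 genes (prior degrees of freedom 8.89). Levels are per-channel values after a further between-array scaling (Aquantile).

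The replicate numbers pair the arrays by their titles, which name each dye swap after its replicate. Same-numbered arrays' deviations from their dye orientation's mean correlated at -0.26. The number of arrays limits the precision. The members, the lists and the tests were chosen with earlier results of these data known. The text names all 10 members, each role's highest and lowest pathway gene where none was called, and fixed cell type markers. Egf and Adam17, as well as genes given at an unadjusted p, were named besides. The fits were tested on simulated data with 2 replicates. The smaller changes put in, though larger than any member's mean ratio, were not called, and the larger ones only in part. A change as small as the members' mean ratios was not tested.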

Additional observations from a re-analysis of the deposited data

Results flagged for a closer look

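Over 36 sets of 4 array values, made of the levels in each RNA and the ratio for each of the 12 probes, 1 had an array far from the others. The level of Ereg in 15p cells was 10.09 on the Cy5 array of replicate 1 and between 9.86 and 9.90 on the other 3 arrays, a gap of 0.844 of the whole range, above the 95% critical value of Dixon's test. Chance alone would mark about 1 set in 20.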

How the results depend on the processing

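Over 13 tested alternatives, 116 of 130 member ratios kept their sign and stayed uncalled, 3 were called and 11 turned. The other filters on dim probes, the fits of all 4 arrays and the crossed pairing left every member's mean ratio as in the main fit. Averaging a gene's probes changed Egfr alone, and the value table nearly repeated the processed signals. The count of kept signs thus overstates how many separate checks were made. Of the alternatives, the deposited value table and the crossed pairing were added after seeing the data. Turned values were -0.016 for Erbb3 with processed signals or the value table, and 0.018 for Egfr with averaged probes. Leaving out 1 array in turn gave 0 to 2 called members, 0 to 3120 called genes and 0 to 11 called pathway genes. Member ratios then ran from -0.37 to 0.090 for Areg, -0.092 to 0.020 for Ereg, -0.0147 to 0.0313 for Hbegf, -0.11 to 0.046 for Epgn, -0.26 to 0.052 for Egfr, 0.035 to 0.14 for Erbb2 and -0.24 to 0.015 for Errfi1, whole replicates left out included. Tgfa reached 0.0054 and Erbb3 -0.0049 without replicate 2. The calls of Areg, Egfr and Errfi1 come from fits with 1 common spread for all genes, in which the array alone in its orientation has no replicate check. Over the 13 alternatives their adjusted limma p ranged up to 1, from 4.11e-06 for Areg, 0.000834 for Egfr and 0.00317 for Errfi1. All genes had 1 call without the filter on dim probes and 1 without the Cy3 array of replicate 2. In both cases the gene was Rtn4, named after its value was seen. A replicate block with a dye term called 60 genes (7 higher, 53 lower) and 0 of 10 members. It takes the spread between replicates out of the error, uses 1 common spread for all genes and, by construction, equals the crossed pairing (60 genes). The dye difference was called for 7 of 10 members and 58% of genes with median centring in place of loess, which leaves intensity-dependent dye effects in the ratios, and for 0 under the other 4 settings run. Leaving out a replicate leaves 1 value with no test. Erbb3 and Btc, the members nearest to the negative controls, are limited most by signal. Btc moved to 0.19 with processed signals or the value table.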
